A study of Mus musculus with 6 samples.

Results

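The lysosomal genes described here are 38 genes for hydrolases of the lysosome, its membrane proteins, progranulin, the transcription factors Tfeb and Tfe3, and subunits of the proton pump that acidifies it. They were listed by symbol and the rule used no measured value, but the list was chosen with earlier results of these data known. Each gene was read from the brightest probe set that the array annotation pairs with its symbol alone. All 38 were measured, each by 1 probe set, of 19937 genes in all. The values are array intensities from v-Abl transformed mouse pro-B cells of strain C57/BL6 with the genotype Foxo1f/f; ERCre, that is, with loxP-flanked Foxo1 alleles and a Cre recombinase that tamoxifen switches on. The 3 untreated samples, which the labels also describe as WT, were set against 3 samples kept in 1 µM tamoxifen for 2 days, described as Foxo1 knockout. Both groups carry the floxed alleles and the Cre, so an effect of tamoxifen or of active Cre cannot be told apart from the loss of Foxo1, and cells with intact Foxo1 under tamoxifen were not analysed here. The sources used here do not say how many clones the line holds. Nothing in the labels states that samples of 1 group were grown as separate cultures, so every p-value here covers only how far these samples differ, and that may be technical spread.

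The lysosome is the acidic compartment in which cells break down proteins, sugars and lipids taken up from outside or delivered by autophagy. Its proton pump, the V-ATPase, has a membrane sector called V0 that carries protons and a cytosolic sector called V1 that splits ATP. Many lysosomal genes are bound by TFEB and TFE3, which recognise a short promoter sequence, the CLEAR element, and which mTORC1 holds in the cytoplasm while nutrients are plentiful. In B cells the same compartment prepares antigens for MHC class II. The v-Abl kinase transforms B cell precursors and arrests them at an early stage.

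Each array held 34760 probe sets, their median intensity lay between 100.9 and 109.1 on all 6, and precision is limited by how few arrays there are. Values given by sample are the deposited intensities, and fold changes are log2 differences after normalization. Foxo1 gave 806, 624 and 512 in untreated and 116, 151 and 134 in tamoxifen samples 1, 2 and 3. The groups did not overlap, with a log2 fold change of -2.13 ± 0.15 (SE) and a limma adjusted p = 0.0178, which ran from 0.000712 to 0.156 over the alternatives and passed in 8 of 15. With 1 array left out the call held only without untreated sample 1. The sources used here do not say whether the probe set lies in the deleted part of Foxo1.

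Most of the lysosomal genes had slightly higher signal in the tamoxifen samples, and none passed the test. Of the 38, 32 had a positive log2 fold change (84.2%) and 6 a negative one, with a median of 0.17, where over all 19937 genes 44.5% were positive and the median was -0.01. The list was chosen with earlier results of these data known, so this contrast is a description and no independent test. The largest values were those of Grn, which encodes progranulin (0.68), Psap, which encodes the precursor of the saposins (0.53), and Ppt1, a palmitoyl-protein thioesterase (0.39). The lowest were those of the glucuronidase gene Gusb (-0.12), the pump subunit gene Atp6v1h (-0.09) and the membrane protein gene Lamp1 (-0.08). Most of the 38 were bright, with 34 above the median intensity of all probe sets. Among the 10611 genes at or above that median, 46.3% were positive and the median was also -0.01. In whole cultures, more cells with a transcript and more of it per cell cannot be told apart.

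With limma and Benjamini-Hochberg adjustment over all probe sets, 0 of the 38 genes passed an adjusted p of 0.05, where 0.0575% of all probe sets did. The lowest adjusted p among the 38 was 0.194, for Ppt1. At an unadjusted p under 0.05, 14 of the 38 were higher after tamoxifen and 0 were lower, where 2.96% of all genes were higher and 2.19% were lower. That count of 14 was 7 when untreated sample 3 was left out, 8 and 9 when tamoxifen samples 1 and 2 were, 9 with no further normalization and 6 with arrays scaled to a common median. The 3 tamoxifen values lay above all 3 untreated values in 13 of the 38 genes after normalization, against 5.56% of all genes, and in 0 they lay below, against 5.68%. On the deposited intensities as they stand, 9 of the 38 were separated upward, against 4.53% of all genes. For a typical member the 95% interval of the log2 fold change reached 0.23 to either side (the median over the 38).

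**Figure D1:**
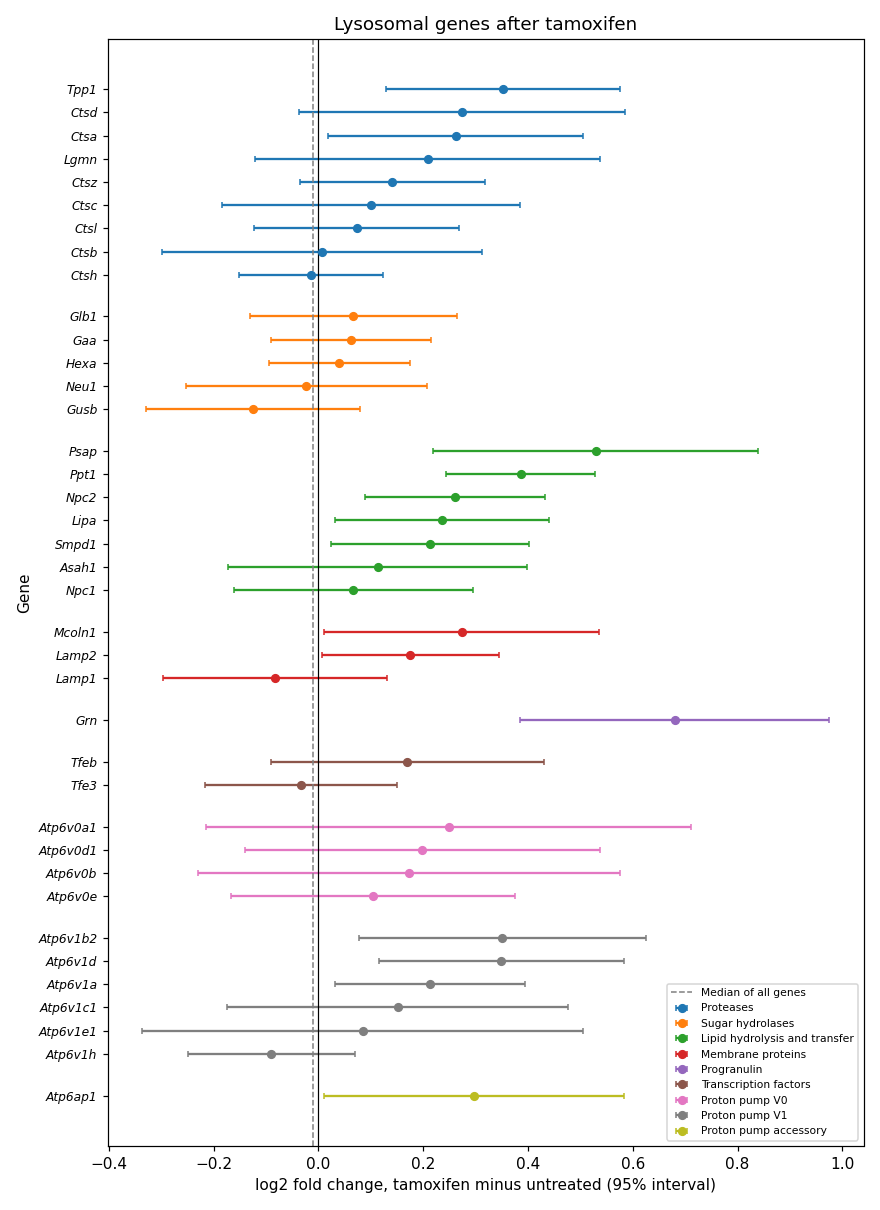
The log2 fold change of each of the 38 lysosomal genes (tamoxifen minus untreated, 3 samples a group) is shown as a point with its 95% interval from limma, coloured by role, and the dashed line is the median of all genes. Grn has the highest value (0.68) and Gusb the lowest (-0.12), and 32 of the 38 points lie above 0.

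**Figure D2:**
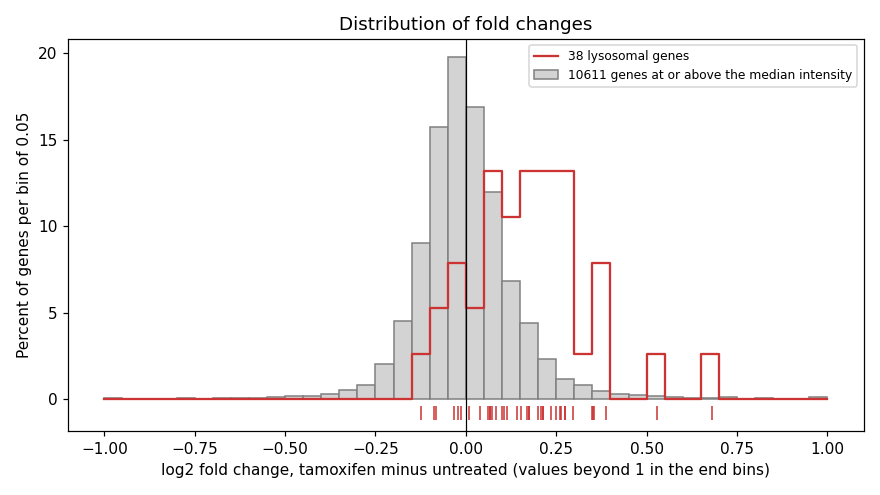
Percent of genes in bins of log2 fold change (tamoxifen minus untreated), for the 10611 genes at or above the median intensity in grey and for the 38 lysosomal genes as a red line, with 1 tick for each lysosomal gene. The grey distribution has a median of -0.01 and the lysosomal genes a median of 0.17.

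Over the 38 genes together, the tamoxifen samples were alike in this respect. Taking each gene's difference from its mean in untreated cells, the median over the 38 genes was 0.07, -0.03 and -0.05 in untreated and 0.22, 0.16 and 0.15 in tamoxifen samples 1, 2 and 3. The same median over all genes lay between -0.03 and 0.03 in every sample. Untreated sample 1 stood nearest to the tamoxifen samples. Over the 21 protease, sugar and lipid genes, the median was 0.08 in untreated sample 1 and 0.11 in tamoxifen sample 1. Over the 11 pump genes it was 0.16 in untreated sample 1, 0.17 in tamoxifen sample 2 and 0.315 in tamoxifen sample 1. The sample with the highest value was a tamoxifen sample for 33 of the 38 genes (86.8%, against 42.6% of all genes). It was tamoxifen sample 1 for 16 genes, tamoxifen sample 3 for 14 and tamoxifen sample 2 for 3. Untreated sample 3 was lowest for 16 genes. Replicates of these genes were somewhat more spread than those of all genes, with a median SD within groups of 0.13 against 0.10 on the log2 scale.

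**Figure D3:**
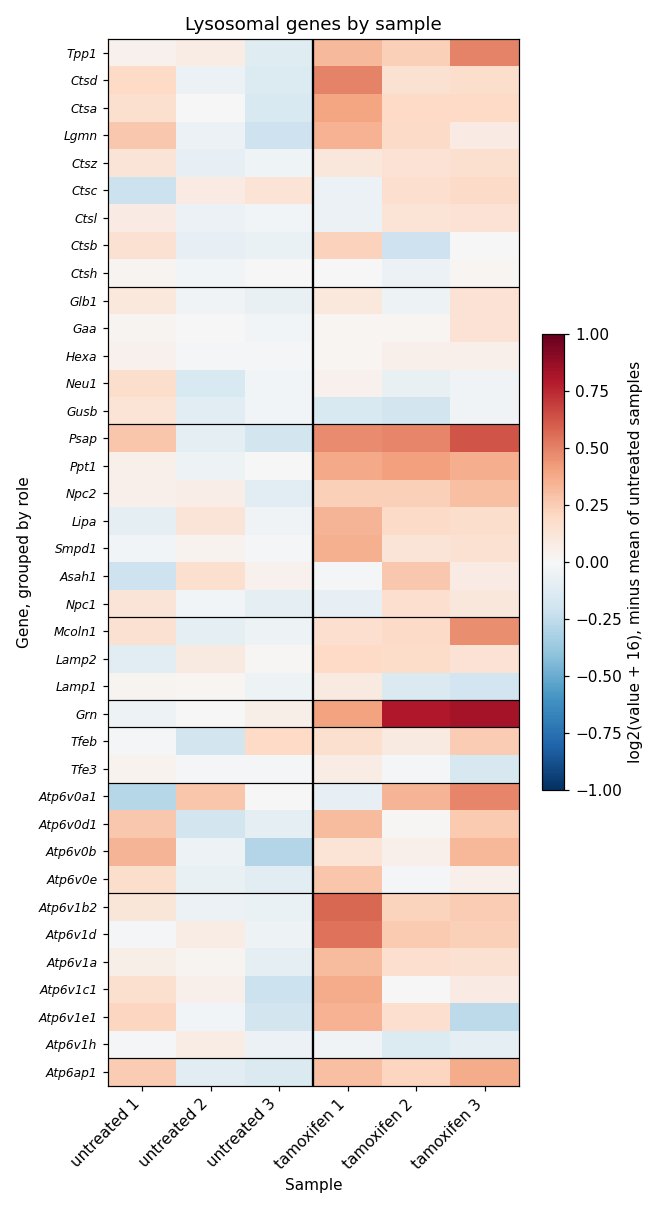
Each row is 1 lysosomal gene and each column 1 sample, with colour giving log2(value + 16) after quantile normalization minus the gene's mean over the 3 untreated samples. Red cells fill most of the 3 tamoxifen columns, whose medians are 0.22, 0.16 and 0.15, whereas the untreated columns have medians of 0.07, -0.03 and -0.05.

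The promoters of these genes were read for the CLEAR element, because TFEB and TFE3 act through it. RefSeq promoter windows on build GRCm38.p6, from 250 bases before a gene's start to 50 after it, were at hand for 31 of the 38 genes (37 windows). The core CACGTG lay in the windows of 12 of the 31 genes (38.7%), against 8.09% of all 27025 genes in the table. TCACGTG, which contains that core and was searched on both strands, lay in those of 11 genes (35.5%, against 4.29%). The full element, CACGTG with GT before it and AC after it, lay as an exact match in 0 of the 31 and in 0.37% of all genes. At a share this low, 0 of 31 says little, and near matches were not counted. A forkhead element, TGTTTAC on either strand, also lay in 0 of the 31, against 4.05% of all genes. The stretches that hold TCACGTG are printed because they show how many copies each gene has and what flanks them. They run 5′ to 3′ on the gene's strand, with TCACGTG or its reverse complement CACGTGA in capitals.
Ctsa (chr2:164833742-164833802, plus strand): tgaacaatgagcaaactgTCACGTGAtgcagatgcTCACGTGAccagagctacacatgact
Ctsd (chr7:142387901-142388077, minus strand): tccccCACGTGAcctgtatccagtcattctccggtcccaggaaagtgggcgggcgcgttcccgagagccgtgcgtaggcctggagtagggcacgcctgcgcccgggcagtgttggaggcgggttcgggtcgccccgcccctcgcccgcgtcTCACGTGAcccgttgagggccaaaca
Lgmn (chr12:102439118-102439160, minus strand): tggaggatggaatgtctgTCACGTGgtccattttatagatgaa
Gaa (chr11:119267804-119267846, plus strand): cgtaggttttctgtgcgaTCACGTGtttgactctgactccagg
Glb1 (chr9:114401011-114401053, plus strand): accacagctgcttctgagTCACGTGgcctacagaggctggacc
Lamp1 (chr8:13159081-13159169, plus strand): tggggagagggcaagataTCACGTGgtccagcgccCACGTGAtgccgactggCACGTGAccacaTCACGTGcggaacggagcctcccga
Mcoln1 (chr8:3500429-3500498, plus strand): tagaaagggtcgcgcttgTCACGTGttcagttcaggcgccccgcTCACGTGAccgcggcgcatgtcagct
Atp6v0b (chr4:117887324-117887384, minus strand): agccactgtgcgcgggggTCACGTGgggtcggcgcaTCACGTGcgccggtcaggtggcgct
Atp6v0d1 (chr8:105566043-105566086, minus strand): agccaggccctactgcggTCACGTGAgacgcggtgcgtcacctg
Atp6v0e (chr17:26676380-26676423, plus strand): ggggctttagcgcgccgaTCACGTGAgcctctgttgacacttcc
Atp6v1a (chr16:44139366-44139409, minus strand): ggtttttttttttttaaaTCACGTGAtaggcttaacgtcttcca

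Lamp1 had 4 copies of the core within its window, and Ctsa, Ctsd, Mcoln1 and Atp6v0b had 2 each. Lgmn, Gaa, Glb1, Atp6v0d1, Atp6v0e and Atp6v1a had 1. Ctsl also had 1, which was not part of TCACGTG on either strand. Where both strands match at 1 place the capitals read TCACGTGA, as in Ctsa, Mcoln1 and Atp6v1a. The 11 genes with TCACGTG had a median log2 fold change of 0.20 and the 20 without it also 0.20 (0.199 and 0.195), a description with no test. Lamp1, with the most copies, measured -0.08. Of the 13 genes with a window and an unadjusted p under 0.05, 3 had TCACGTG (Ctsa, Mcoln1 and Atp6v1a) and 10 did not. Over all genes measured, the median was 0.00 for the 835 genes with TCACGTG and -0.01 for 14778 without it. Grn, with the largest value of the 38, had no exact copy of the core, and its window is printed whole for that reason. Only exact matches were searched, so near matches in it were not counted.
Grn (chr11:102430257-102430556, plus strand): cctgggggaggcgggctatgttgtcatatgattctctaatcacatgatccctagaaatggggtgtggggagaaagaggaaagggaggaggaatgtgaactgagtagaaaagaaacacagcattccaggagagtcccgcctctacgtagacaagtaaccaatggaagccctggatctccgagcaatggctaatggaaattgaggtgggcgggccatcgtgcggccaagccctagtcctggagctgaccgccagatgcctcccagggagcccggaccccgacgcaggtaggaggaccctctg

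The 7 genes of lipid hydrolysis and transfer were all positive, with a median of 0.24. At an unadjusted p under 0.05, 5 of the 7 were higher, against 2.96% of all genes. Psap encodes the precursor of the saposins, small proteins that present sphingolipids to their hydrolases. It gave 772, 598 and 509 in untreated and 931, 853 and 930 in tamoxifen samples 1, 2 and 3. Every tamoxifen sample was above every untreated one, with untreated sample 1 the nearest, and the means were 626 ± 134 and 904 ± 44.8 (SD, n = 3). The log2 fold change was 0.53 ± 0.13 (SE), or 1.44-fold, with a limma adjusted p = 0.52.

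Ppt1, which removes palmitate from proteins on their way to degradation, gave 1548, 1428 and 1364 in untreated and 2011, 1886 and 1809 in tamoxifen samples 1, 2 and 3. The gap between the groups was wider than the range within either of them. Its log2 fold change of 0.39 ± 0.06 (SE), 1.31-fold, had a limma adjusted p = 0.194, with a range over the alternatives of 0.051 to 0.72. Npc2, a soluble carrier that hands cholesterol to the membrane protein NPC1, gave 1718, 1723 and 1405 in untreated and 2034, 1858 and 1929 in tamoxifen samples 1, 2 and 3, again without overlap (0.26 ± 0.07, SE). Npc1 itself measured 0.07 ± 0.10 (SE), and its groups overlapped.

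Lipa, the acid lipase of cholesteryl esters and triglycerides, gave 451, 536 and 431 in untreated and 646, 529 and 524 in tamoxifen samples 1, 2 and 3. Its groups overlapped on the deposited values, since untreated sample 2 exceeded tamoxifen samples 2 and 3, and did not after normalization (0.24 ± 0.09, SE). Smpd1, acid sphingomyelinase, was dimmer, with 79.5, 85.2 and 85.6 in untreated and 106, 93.7 and 95.2 in tamoxifen samples 1, 2 and 3. All of its tamoxifen values were above the untreated ones, by a log2 fold change of 0.21 ± 0.08 (SE). Asah1, acid ceramidase, measured 0.11 ± 0.12 (SE).

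Grn had the largest value of all. Progranulin is a secreted and lysosomal protein that is cut into granulins, and it travels to the lysosome together with prosaposin. Grn gave 628, 658 and 622 in untreated and 918, 1107 and 1116 in tamoxifen samples 1, 2 and 3. The untreated values were close together and all tamoxifen values lay well above them, with means of 636 ± 19.3 and 1047 ± 112 (SD, n = 3). The log2 fold change was 0.68 ± 0.12 (SE), or 1.60-fold, with a 95% interval of 0.38 to 0.97 and a limma adjusted p = 0.274. With 1 array left out it ran from 0.61 to 0.82.

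**Figure D4:**
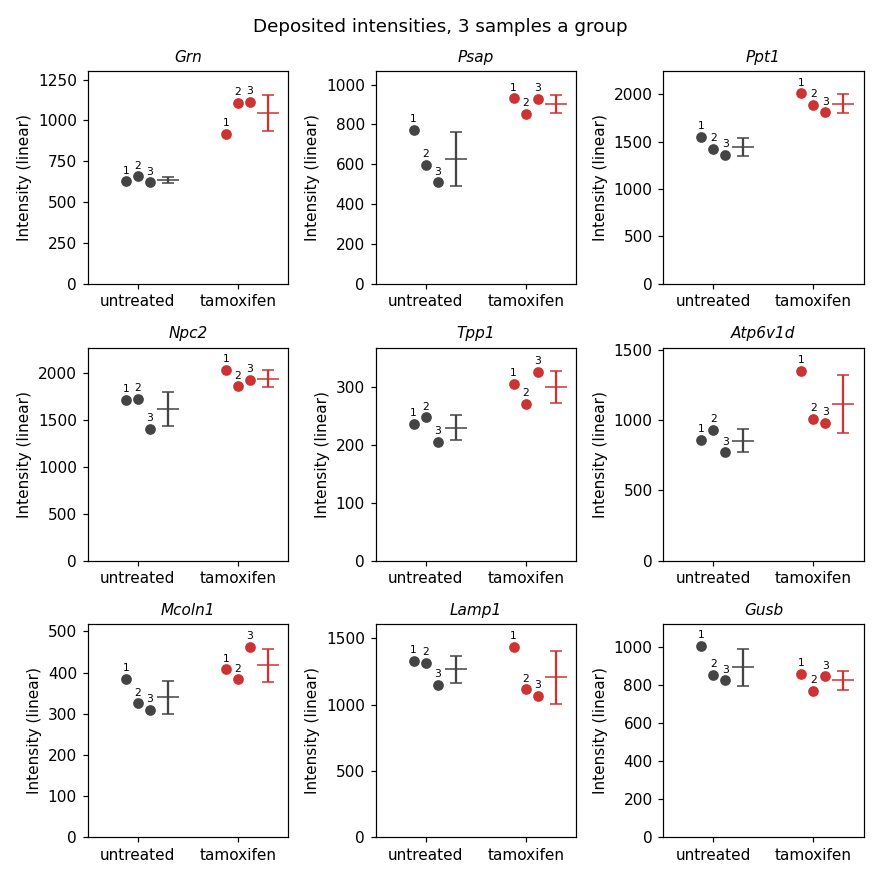
Deposited intensities (taken as linear) of 9 lysosomal genes, with 1 point for each sample (numbered by replicate) and the mean ± SD of 3 samples beside the points, on axes that start at 0. Grn, Psap, Ppt1, Npc2, Tpp1 and Atp6v1d have all 3 tamoxifen points above the untreated ones, Mcoln1 touches, and Lamp1 and Gusb overlap.

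Of the 9 proteases, 8 were positive (median 0.14) and 2 were higher at an unadjusted p under 0.05, against 2.96% of all genes. Tpp1, a tripeptidyl peptidase, had intensities of 236, 247 and 205 in untreated and 305, 271 and 326 in tamoxifen samples 1, 2 and 3, without overlap. Its log2 fold change was 0.35 ± 0.09 (SE), with a limma adjusted p = 0.61. Ctsa, a carboxypeptidase that also shields the galactosidase and sialidase of the lysosome, gave 403, 365 and 304 in untreated and 505, 402 and 403 in tamoxifen samples 1, 2 and 3. Untreated sample 1 thus reached the level of tamoxifen samples 2 and 3, and the value was 0.26 ± 0.10 (SE).

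The aspartic protease Ctsd measured 0.27 ± 0.13 (SE) with overlapping groups, the asparaginyl endopeptidase Lgmn 0.21 ± 0.14 and the carboxypeptidase Ctsz 0.14 ± 0.07. Ctsc, a dipeptidyl peptidase that activates granule proteases, gave 1517, 1845 and 1793 in untreated and 1763, 1880 and 1905 in tamoxifen samples 1, 2 and 3. Its low value in untreated sample 1 sets the difference, which was 0.10 ± 0.12 (SE) and -0.005 without that sample. The cysteine proteases Ctsb and Ctsl measured 0.01 ± 0.13 and 0.07 ± 0.08 (SE), and Ctsb changed sign under 4 of its 15 alternatives. Ctsh, at -0.01 ± 0.06 (SE), was dim, with means of 39.4 and 38.4 against a lower quartile of 46.1 over all probe sets, so a change in it may not have been measurable.

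The 5 sugar hydrolases stayed close to 0, with a median of 0.04. None had an unadjusted p under 0.05, where 2.96% of all genes were higher and 2.19% lower. None had separated groups, where 5.56% of all genes were separated upward and 5.68% downward. At these shares, counts of 0 among 5 genes say little about this class. Gusb, which releases glucuronic acid, gave 1007, 855 and 826 in untreated and 862, 771 and 848 in tamoxifen samples 1, 2 and 3. The groups overlapped, and the log2 fold change was -0.12 ± 0.09 (SE) with a 95% interval of -0.33 to 0.08. The galactosidase Glb1 measured 0.07 ± 0.08, the glucosidase Gaa 0.06 ± 0.06, the hexosaminidase chain Hexa 0.04 ± 0.06 and the sialidase Neu1 -0.02 ± 0.10 (SE). Their intervals together spanned -0.33 to 0.26 on the log2 scale. Hexa was dim, with means of 64.1 and 65.5 against a median of 106 over all probe sets.

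The 3 membrane proteins did not go one way. Lamp1 and Lamp2 are the heavily glycosylated proteins that line the lysosomal membrane, and Lamp2 also serves as a receptor of chaperone-mediated autophagy. Lamp1 gave 1329, 1315 and 1146 in untreated and 1435, 1115 and 1067 in tamoxifen samples 1, 2 and 3, with tamoxifen sample 1 the highest and the other two the lowest of all 6. Its value of -0.08 ± 0.09 (SE) stayed negative in all 15 alternatives, with limma adjusted p of 0.908 or more. Lamp2 gave 1214, 1387 and 1205 in untreated and 1553, 1407 and 1366 in tamoxifen samples 1, 2 and 3, and measured 0.18 ± 0.07 (SE).

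Mcoln1, the calcium channel of the lysosomal membrane, gave 384, 325 and 310 in untreated and 408, 384 and 462 in tamoxifen samples 1, 2 and 3. Untreated sample 1 and tamoxifen sample 2 coincided, and the log2 fold change was 0.27 ± 0.11 (SE) with a limma adjusted p = 0.949.

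The transcription factors of the CLEAR element differed little between the groups. Tfeb gave 139, 123 and 166 in untreated and 159, 154 and 174 in tamoxifen samples 1, 2 and 3. The groups overlapped through untreated sample 3, with a log2 fold change of 0.17 ± 0.11 (SE). Tfe3 gave 122, 119 and 123 in untreated and 124, 121 and 108 in tamoxifen samples 1, 2 and 3, a value of -0.03 ± 0.08 (SE). These factors are controlled largely by where they sit in the cell, which a transcript level does not show.

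Of the 11 proton pump genes 10 were positive, with a median of 0.20. Higher at an unadjusted p under 0.05 were 4, against 2.96% of all genes. In the cytosolic V1 sector, Atp6v1d, of the central rotor, gave 861, 931 and 772 in untreated and 1350, 1011 and 984 in tamoxifen samples 1, 2 and 3. The groups did not overlap, tamoxifen sample 1 was far above the rest, and the log2 fold change was 0.35 ± 0.10 (SE), or 1.27-fold, with a limma adjusted p = 0.663. Without tamoxifen sample 1 it was 0.25.

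Atp6v1b2, the B subunit of the ATP-splitting head, gave 460, 409 and 368 in untreated and 669, 476 and 483 in tamoxifen samples 1, 2 and 3, with a log2 fold change of 0.35 ± 0.11 (SE). Atp6v1a, the catalytic A subunit of the same head, gave 853, 844 and 706 in untreated and 1070, 884 and 867 in tamoxifen samples 1, 2 and 3, with 0.21 ± 0.08 (SE). In both, the groups were apart and tamoxifen sample 1 was highest. Atp6v1c1, of the stator stalks, gave 1192, 1103 and 833 in untreated and 1432, 1012 and 1057 in tamoxifen samples 1, 2 and 3, and its groups overlapped (0.15 ± 0.14, SE). Atp6v1e1, also of the stalks, measured 0.08 ± 0.17 (SE). Atp6v1h, a regulatory subunit of V1, was the negative one of the 11 (-0.09 ± 0.07, SE).

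In the membrane V0 sector all 4 genes were positive, between 0.10 and 0.25. None had separated groups, where 5.56% of all genes were separated upward and 5.68% downward. Atp6v0e gave 1423, 1183 and 1054 in untreated and 1576, 1169 and 1222 in tamoxifen samples 1, 2 and 3, a log2 fold change of 0.10 ± 0.11 (SE). Sample 1 was the highest of each group. The proton channel subunits Atp6v0a1 and Atp6v0b measured 0.25 ± 0.19 and 0.17 ± 0.17 (SE), and Atp6v0d1, which joins the sectors, 0.20 ± 0.14 (SE). The accessory subunit Atp6ap1, needed for pump assembly, gave 1237, 955 and 847 in untreated and 1325, 1140 and 1256 in tamoxifen samples 1, 2 and 3. Untreated sample 1 lay inside the range of the tamoxifen samples, and the log2 fold change was 0.30 ± 0.12 (SE) with a limma adjusted p = 0.95.

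Other genes of the pathway were listed apart from the 38, with earlier results of these data known, so their counts are descriptions only. Of 57 other lysosomal genes 51 were measured, 39 of them positive (76.5%) with a median of 0.09 (0.045 without untreated sample 2), and 2 passed the test, both upward, against 0.0575% of all probe sets. These were the thiol reductase Ifi30 (1.52 ± 0.08, SE, limma adjusted p = 0.00794) and the endolysosomal exonuclease Pld4 (1.38 ± 0.08, SE, limma adjusted p = 0.012). Both passed when untreated sample 1 was left out, 1 passed (Ifi30) when tamoxifen sample 1 was, and neither did when any other sample was, with log2 fold changes between 1.34 and 1.57. Besides these 2, 5 were higher and 1 was lower at an unadjusted p under 0.05, where 2.96% and 2.19% of all genes were. Among them the cysteine protease Ctss gave 2039, 2268 and 2223 in untreated and 3080, 2769 and 2831 in tamoxifen samples 1, 2 and 3, with no overlap (0.41 ± 0.08, SE, limma adjusted p = 0.308). The cystine exporter Ctns measured 0.28 ± 0.11 (SE). Tpcn1, a cation channel of endolysosomes, measured -0.47 ± 0.14 (SE), with means of 236 ± 52.1 and 164 ± 9.17 (SD, n = 3) and a limma adjusted p = 0.733.

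Of 15 other pump genes 14 were measured, 6 of them positive, with a median of -0.03. That list holds isoforms known mainly from other tissues, such as the kidney forms Atp6v1b1 (-0.15 ± 0.06, SE) and Atp6v0a4. Its 2 brightest genes, Atp6v1g1 and Atp6v1f, measured -0.07 ± 0.06 and 0.05 ± 0.10 (SE). Whether tissue use bears on the median was not tested. The accessory subunit Atp6ap2 measured 0.28 ± 0.08 (SE) without overlap, from means of 352 ± 39.0 to 438 ± 35.5 (SD, n = 3), with a limma adjusted p = 0.662. The difference between the 2 sets of pump genes was not tested. Among 15 genes that signal from the lysosome to mTORC1 or belong to the TFEB family, 11 were positive with a median of 0.08, and 0 passed limma. Only Rragc, a GTPase of mTORC1 recruitment named after its value was seen, had an unadjusted p under 0.05 (0.23 ± 0.06, SE).

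Markers of pro-B cells were present and were also mostly higher after tamoxifen. Of 8 listed, 7 were measured, all above the median intensity, and their summed intensity ran from 14034 to 15303 in untreated and from 16759 to 17161 in tamoxifen samples. Of the 7, 6 were positive and limma called 0. At an unadjusted p under 0.05, 5 were higher and 1 was lower, where 2.96% and 2.19% of all genes were. Cd79b measured 0.52 and Ebf1 -0.51. The part of this in the lysosomal values was not tested. Markers of macrophages and monocytes, cells rich in lysosomes, summed to between 558 and 628 in untreated and between 546 and 594 in tamoxifen samples over 8 measured genes, 4 of them positive. Their sum was not higher with tamoxifen. Lyz2, with the largest fall of the 8, had means of 55.7 in untreated and 46.1 in tamoxifen samples. Fcgr1, with the largest rise, had means of 79.6 and 87.8. After normalization Fcgr1 was separated upward and Lyz2 downward, where 5.56% and 5.68% of all genes were. On the deposited values the groups of Lyz2 overlapped and those of Fcgr1 did not. Summed markers of granulocytes, dendritic cells, T cells, erythroid cells and megakaryocytes, and stroma overlapped between the groups. Limma called 0 genes of all these other cell types, and 1, the granulocyte protease Prtn3, had an unadjusted p under 0.05 (-0.21).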

How the data were processed

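Total RNA of 6 samples was labelled as biotinylated cRNA, per the labels' protocols, and hybridised to arrays. The authors deposited intensity values, 1 per probe set and array, which were taken as linear from their range. The sources used here do not give their scale, background correction, probe summary, normalization or any batch.

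Quantile normalization across the arrays was applied to log2(value + 16). Fold changes are on this scale, which understates changes of dim genes. Intensities in the text are the deposited ones. Tamoxifen was tested against untreated in limma 3.58.1 (lmFit, eBayes, two-sided, R 4.3.3), with no covariate and Benjamini-Hochberg adjustment over 34760 probe sets at 0.05. Of these, 21640 had 1 gene symbol, 1321 several and 11799 none, giving 19937 genes. The brightest probe set stood for a gene. The steps were tested on simulated data. Figures were drawn with matplotlib 3.10.9.

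The members, the 10 other gene lists and the motifs were chosen with earlier results of these data known. Named with every sample's value are members at an unadjusted p under 0.05 or with separated groups, Tfeb, Tfe3, Lamp1 and the brightest member of each role. Of the other pathway genes, those past the threshold are named, then up to 3 higher and 3 lower ones at an unadjusted p under 0.05.

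Alternatives were a replicate block, each sample left out, cyclic loess, scaling to a common median, no further normalization, dim probe sets left out, pseudocounts of 1 and 64, an intensity trend with robust eBayes, and probe sets averaged per gene. Promoter windows are those of RefSeq on GRCm38.p6, an assembly used only for these sequences.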

Additional observations from a re-analysis of the deposited data

How the results depend on the processing

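Under all 15 alternatives, limma called 0 of the measured 38 members, 29 members stayed positive, 3 stayed negative and 6 changed sign. The members' median log2 fold change ran from 0.147 to 0.205 with 1 sample left out and from 0.146 to 0.194 otherwise, with 29 to 34 positive (34 members tested with dim probe sets left out). Members at an unadjusted p under 0.05 numbered 6 with a common median and 9 without further normalization, and 7 to 16 with 1 sample left out. All probe sets under that cut numbered 1409, 1489 and 1360 to 2218 in the same order. Other lysosomal calls were 0 with a replicate block and 0 to 2 with 1 sample left out, and that list's median was 0.136 with dim probe sets left out and 0.045 to 0.092 with 1 sample left out. Calls over all probe sets, 20 in the report, were 0 with the replicate block, 3 with a common median, 12 without further normalization, 46 without dim probe sets, 11 with pseudocount 1, 12 with the intensity trend, 73 with probe sets averaged per gene and 0 to 6 with 1 sample left out. At 0 calls, the probe sets with an unadjusted p under 0.05 numbered from 1360 (without tamoxifen sample 2) to 2525 (with the replicate block). In the report they numbered 1775. With no effect at all, a fraction of about 0.05 of the 34760 probe sets would fall under that cut. Whether these counts differ from that was not tested, so they are not read as an effect. The cause of the moves between alternatives was not tested.

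Sign changes with 1 sample left out gave ranges of -0.105 to 0.114 for Ctsb, -0.005 to 0.179 for Ctsc, -0.031 to 0.006 for Ctsh, -0.098 to 0.065 for Neu1, -0.046 to 0.258 for Atp6v1e1 and -0.083 to 0.031 for Tfe3. With cyclic loess Ctsb was -0.003. Same-numbered samples deviated together with correlations of 0.256, 0.055 and 0.302. Between differently numbered samples the correlations ran from -0.42 to 0.248. These values do not settle whether the numbers pair the samples, so the replicate block was kept as an alternative to the unpaired fit. With the replicate block 12 members had an unadjusted p under 0.05, and the calls of Foxo1, Ifi30 and Pld4 were lost (limma adjusted p = 0.0936, 0.081 and 0.081).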
